A study of Homo sapiens with 13 samples.

Results

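The genes of cholesterol and fatty acid synthesis were followed in SW480 cells after exposure to iron chelators. SW480 is an established human colon cancer line. The group was a list of 30 genes chosen by their role: the enzymes from acetoacetyl-CoA to cholesterol, the main enzymes that make and desaturate fatty acids, and the regulators SREBF1, SREBF2, SCAP and INSIG1 with the sterol carrier STARD4. Of the 30 genes, 28 were measured by a row of their own, out of 18404 genes on the array in all. No row named FDFT1, alone or shared, and the row of HSD17B7 was shared with its copy HSD17B7P2, so neither was tested as a member. Where several rows named 1 gene, the row with the highest mean was used.

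Cells seeded in 6-well plates were exposed for 6 h and lysed, and RNA was hybridised to Affymetrix Human Gene 1.0 ST arrays. The control group received 0.1% DMSO (4 arrays). The other groups received DFO, labelled 100 mM (4 arrays), Deferasirox, labelled 50 mM (3 arrays), or OICR623, labelled 10 mM (2 arrays). The millimolar unit is given here as the labels print it. DFO and Deferasirox are iron chelators, and OICR623 is a compound known here only by its code name. The labels call the arrays biological replicates from separate experiments, and all groups were the same cell line at 1 time point.

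Values were deposited log2 signals, so a difference of 1 is a doubling. The median signal of an array was not the same on all 13 arrays. It was 7.17 to 7.19 on DMSO 1 and DFO 1 (the high level), 6.64 to 6.69 on 8 arrays (the middle level) and 6.52 to 6.55 on DMSO 4, DFO 4 and Deferasirox 3 (the low level). Each comparison was therefore fitted with the level as a block, and both OICR623 arrays lay at the middle level. DMSO 1 and DFO 1 also shared the same value, to every deposited digit, for 5535 of the 18404 genes (30.1%), among them the members ACAT2, PMVK, MVD, CYP51A1, TM7SF2, SC5D and ACACA. Any other 2 arrays shared at most 37. The origin of these shared values was not tested, and results are also given without that pair where they change. Epithelial keratins KRT8 and KRT18 lay above the 99th percentile of genes by mean signal and EPCAM at the 82nd, while CDH1 and KRT20 lay at the 20.7th and 18.0th. Among markers of other cell types, DCN, LUM (fibroblast) and PTPRC (leukocyte) lay below the 2nd percentile, but COL1A1 lay at the 54.8th, the fibroblast genes PDGFRB, COL3A1 and COL1A2 at the 35.5th to 38.7th, and the leukocyte genes CD14, CD3E and LYZ at the 14.5th to 30.04th. Signals of different probes are not on 1 scale, so these percentiles are a rough guide.

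Cholesterol is built from acetyl-CoA through mevalonate, isoprenoid units, squalene and lanosterol, and fatty acids are built from the same acetyl-CoA through malonyl-CoA. Both routes are controlled by the SREBP transcription factors, encoded by SREBF1 and SREBF2. When sterols are low, SCAP carries SREBP from the endoplasmic reticulum to the Golgi, where it is cut and released, and the INSIG proteins hold the complex back when sterols are high. Several of the enzymes need iron: CYP51A1 is a heme enzyme, and MSMO1, SC5D, SCD, FADS1 and FADS2 are membrane enzymes with a pair of iron atoms in the active site.

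The promoters of 5 members that the results below turn on are shown first. RefSeq promoter windows (GRCh38.p14, 250 bases before to 50 after a gene's start) were matched by symbol for 25 of the 28 members, in 34 entries. The motif CACNCCA, the core of the sterol regulatory element, was found on either strand in 13 of these 34 windows (38.2%) and in 17.6% of all 35116 windows. CCAAT, the box bound by NF-Y, was found in 67.6% of the members' windows and in 34.6% of all. All 13 windows with CACNCCA also held CCAAT, with no overlap of their matches, against 5.98% of all windows with both. ACGTG, the core of the HIF site, was found in 26.5% of the members' windows and in 21.4% of all. A match is a description of the letters and not a measured site.

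The 250 bases before the start are printed 5′ to 3′ on the gene's strand, with matches to CACNCCA (or its reverse complement) and to CCAAT (or ATTGG) in capitals. Where a gene had several entries, the one with the most matches is shown. HMGCS1 lies at chr5:43313413-43313662 (minus strand), IDI1 at chr10:1048887-1049136 (minus strand), MSMO1 at chr4:165327419-165327668 (plus strand), INSIG1 at chr7:155297628-155297877 (plus strand) and ELOVL6 at chr4:110198616-110198865 (minus strand). The first 4 are the members with the widest shifts at the low array level, though INSIG1 was uncalled at the high level, and ELOVL6 is the member called after Deferasirox.
HMGCS1: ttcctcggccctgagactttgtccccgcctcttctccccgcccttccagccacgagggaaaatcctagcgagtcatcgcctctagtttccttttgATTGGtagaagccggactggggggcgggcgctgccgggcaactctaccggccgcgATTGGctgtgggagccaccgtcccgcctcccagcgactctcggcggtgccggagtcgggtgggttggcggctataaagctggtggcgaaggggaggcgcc
IDI1: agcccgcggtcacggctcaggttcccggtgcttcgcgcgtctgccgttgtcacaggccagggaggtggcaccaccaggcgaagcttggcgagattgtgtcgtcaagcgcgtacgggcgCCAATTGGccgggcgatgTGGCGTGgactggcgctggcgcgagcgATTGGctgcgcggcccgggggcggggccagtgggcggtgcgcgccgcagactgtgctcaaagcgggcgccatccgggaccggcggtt
MSMO1: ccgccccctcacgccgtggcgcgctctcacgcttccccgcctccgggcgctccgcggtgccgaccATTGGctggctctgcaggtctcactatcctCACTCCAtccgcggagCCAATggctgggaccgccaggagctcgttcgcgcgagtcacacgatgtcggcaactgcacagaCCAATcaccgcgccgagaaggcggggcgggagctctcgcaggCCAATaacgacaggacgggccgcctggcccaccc
INSIG1: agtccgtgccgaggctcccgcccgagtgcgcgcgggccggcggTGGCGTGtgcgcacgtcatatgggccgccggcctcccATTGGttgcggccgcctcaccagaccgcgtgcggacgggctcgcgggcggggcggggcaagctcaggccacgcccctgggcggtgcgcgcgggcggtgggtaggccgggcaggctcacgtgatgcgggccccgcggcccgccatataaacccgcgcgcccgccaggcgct
ELOVL6: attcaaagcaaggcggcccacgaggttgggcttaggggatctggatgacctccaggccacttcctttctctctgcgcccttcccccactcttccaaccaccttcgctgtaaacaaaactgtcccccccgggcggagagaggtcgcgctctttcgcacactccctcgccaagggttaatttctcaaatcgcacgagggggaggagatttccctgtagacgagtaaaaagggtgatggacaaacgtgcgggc

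In the stretches printed, HMGCS1 showed CCAAT matches alone, ELOVL6 showed neither motif, and IDI1, MSMO1 and INSIG1 showed both. These were picked for most matches: another HMGCS1 window held neither motif, another IDI1 window held CCAAT alone, and a further IDI1 window held neither. SQLE, the member called after DFO, had no window matched by its symbol.

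After 6 h, 2 of the 28 genes of cholesterol and fatty acid synthesis were called with any of the 3 compounds, each in 1 comparison and by less than 1.25-fold. With DFO, 1 of the 28 members was called at an adjusted p under 0.05, SQLE, which fell, while 4.6% of all genes were called. With Deferasirox, 1 member was called, ELOVL6, which fell, beside 5.84% of all genes. With OICR623, 0 members were called, beside 0.734% of all genes, and 1 member, ELOVL6, had an unadjusted limma p under 0.05. The unadjusted count was 3 with DFO (SQLE, INSIG1 and FADS1) and 4 with Deferasirox (SQLE, SREBF1, SCD and ELOVL6).

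The members' differences lay on both sides of 0. With DFO, 14 were above 0 and 14 below, from -0.16 to 0.25, with a median of -0.01 against 0.00 over all genes. With Deferasirox, 15 were above and 13 below, from -0.26 to 0.20, with a median of 0.00 against 0.00. With OICR623, 12 were above and 16 below, from -0.19 to 0.15, with a median of -0.02 against 0.00. Fitted without the level block, 0 members were called with each compound, beside 0.245%, 0.234% and 0.038% of all genes, and 0 had an unadjusted limma p under 0.05. The medians were -0.21 with Deferasirox (all genes -0.15) and -0.24 with OICR623 (all genes -0.11) in that fit. Neither of those groups had an array at the high level. Taking DFO and DMSO arrays of 1 number as pairs, 12 of 28 members (42.9%) differed one way in all 4 pairs, 5 higher (INSIG1, SREBF1, SREBF2, FADS1 and FADS2) and 7 lower (HMGCS1, MVK, SQLE, MSMO1, NSDHL, SCAP and ELOVL6), as did 24.2% of all genes. Genes with the same value on DMSO 1 and DFO 1 could not count here, and the shares are a description. The share over all genes is the background for each statement below on the 4 pairs.

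The 95% intervals bound what could have been missed. All 28 lay within a 1.5-fold change in either direction for each compound against DMSO, gene by gene and not jointly. Within 1.25-fold lay 26 of 28 with DFO (not MSMO1 or INSIG1), 24 with Deferasirox (not IDI1, INSIG1, STARD4 or ELOVL6) and 22 with OICR623 (not HMGCS1, IDI1, MSMO1, STARD4, ACACA or ELOVL6). The outermost bounds were 0.44 for INSIG1 with DFO, 0.50 for STARD4 with Deferasirox and 0.43 for STARD4 with OICR623. Without DMSO 1 and DFO 1, all 28 intervals against DMSO again lay within 1.5-fold, with outermost bounds of 0.48 (INSIG1), 0.51 (STARD4) and 0.43 (STARD4). Without the level block, only 15, 4 and 3 members had intervals within 1.5-fold with DFO, Deferasirox and OICR623, so this bound rests on the block.

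**Figure D1:**
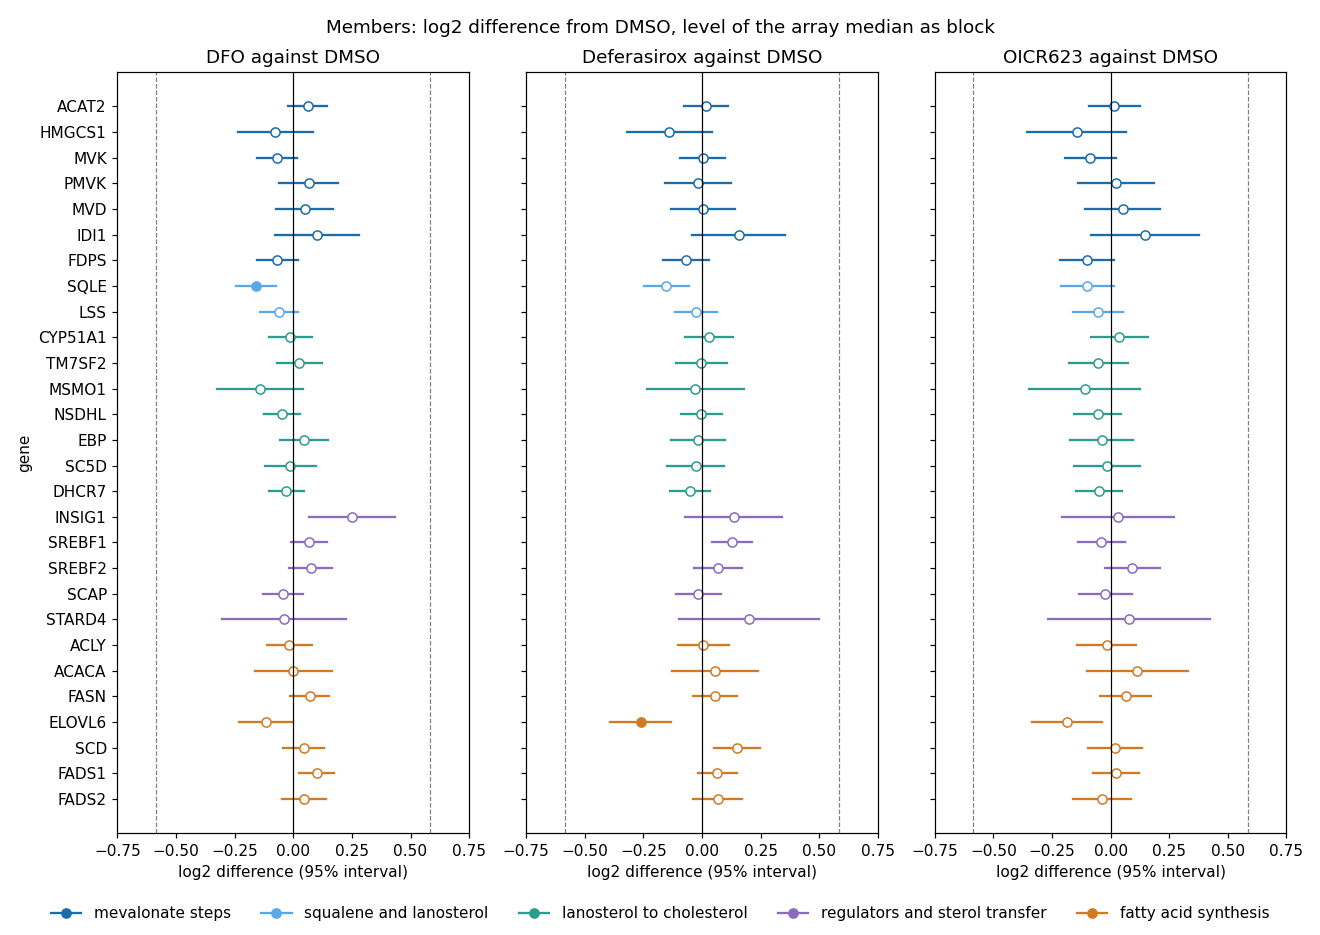
Fitted log2 difference from DMSO (horizontal axis, with its 95% interval as a bar) of the 28 measured members (vertical axis), with DFO, Deferasirox and OICR623 in separate panels, coloured by role. Filled points were called at adjusted p under 0.05, dashed lines mark a 1.5-fold change, and the only filled points are SQLE with DFO (-0.16) and ELOVL6 with Deferasirox (-0.26).

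The mevalonate steps turn acetyl-CoA into the isoprenoid units from which sterols are made. None of their 7 genes (ACAT2, HMGCS1, MVK, PMVK, MVD, IDI1 and FDPS) was called with any compound. Of all genes, 4.6% were called with DFO, 5.84% with Deferasirox and 0.734% with OICR623, so no call in 7 is near the background. HMGCS1, which condenses acetyl-CoA with acetoacetyl-CoA, read 9.31, 8.13, 7.94 and 8.44 in DMSO 1 to 4 and 9.20, 8.08, 7.88 and 8.34 in DFO 1 to 4. It read 8.03, 7.94 and 8.13 in Deferasirox 1 to 3 and 8.04 and 7.82 in OICR623 1 and 2. The 2 high-level arrays stood well above the rest, and the ranges of DFO and DMSO overlapped. DFO lay below DMSO in each of the 4 pairs of arrays with 1 number, where 24.2% of all genes differed one way. The fitted differences were -0.08 (SE 0.07) with DFO, -0.14 (SE 0.08) with Deferasirox and -0.14 (SE 0.10) with OICR623. IDI1, which interconverts the isoprenoid units, differed by 0.10 (SE 0.08), 0.16 (SE 0.09) and 0.15 (SE 0.10), with adjusted p of 0.64, 0.42 and 0.70. The differences of the other 5 genes lay between -0.10 and 0.07.

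SQLE, squalene epoxidase, adds oxygen to squalene in an early step that is specific to sterols. It read 11.28, 10.50, 10.45 and 10.62 in DMSO 1 to 4 and 11.15, 10.33, 10.27 and 10.45 in DFO 1 to 4. It read 10.32, 10.34 and 10.45 in Deferasirox 1 to 3 and 10.44 and 10.31 in OICR623 1 and 2. Within each level the DFO arrays lay below the DMSO arrays, by 0.12 at the high, 0.17 at the middle and 0.17 at the low level, although the DFO and DMSO ranges over all levels overlapped. All Deferasirox arrays lay below all DMSO arrays, but barely, with Deferasirox 3 at 10.445 and DMSO 3 at 10.449. SQLE fell by 0.16 with DFO on the log2 scale (SE 0.04, 1.12-fold, 95% interval -0.25 to -0.07, adjusted p = 0.043). The difference was -0.15 with Deferasirox (SE 0.04, adjusted p = 0.077) and -0.10 with OICR623 (SE 0.05, adjusted p = 0.54). The call was lost without DMSO 1 and DFO 1 (-0.17, adjusted p = 0.090) and when DFO and DMSO arrays of 1 number were taken as pairs, with the replicate as a block (-0.16, adjusted p = 0.057). It was also lost without any single DMSO, DFO or Deferasirox array, with adjusted p of 0.063 to 0.16 and differences of -0.17 to -0.14. LSS, which closes the rings of lanosterol, differed by -0.06, -0.02 and -0.05 and was not called.

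From lanosterol to cholesterol, none of 7 measured genes was called with any compound. Beside 4.6%, 5.84% and 0.734% of all genes called with DFO, Deferasirox and OICR623, no call in 7 is again near the background. CYP51A1, the heme enzyme that removes a methyl group from lanosterol, read 11.68, 10.65, 10.58 and 10.79 in DMSO 1 to 4 and 11.68, 10.60, 10.64 and 10.72 in DFO 1 to 4. It read 10.66, 10.70 and 10.73 in Deferasirox 1 to 3 and 10.74 and 10.60 in OICR623 1 and 2. Apart from the high-level pair, whose values were the same, the arrays lay close together in every group, and the differences were -0.01, 0.03 and 0.04.

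MSMO1, the sterol methyl oxidase, read 10.97, 10.03, 9.85 and 10.32 in DMSO 1 to 4 and 10.89, 9.93, 9.62 and 10.15 in DFO 1 to 4. It read 10.07, 9.86 and 10.15 with Deferasirox and 9.95 and 9.73 with OICR623. The ranges of the groups overlapped. DFO lay below DMSO in each pair of arrays of 1 number (by 0.08, 0.10, 0.22 and 0.17), where 24.2% of all genes differed one way. The fitted differences of MSMO1 were -0.14 (SE 0.08, adjusted p = 0.48) with DFO, -0.03 (SE 0.09) with Deferasirox and -0.11 (SE 0.11) with OICR623. SC5D, the sterol desaturase that acts late in the route, read 11.78, 10.95, 10.78 and 10.69 in DMSO 1 to 4 and 11.78, 10.93, 10.84 and 10.60 in DFO 1 to 4. With Deferasirox it read 10.91, 10.89 and 10.53, and with OICR623 10.89 and 10.87. Its low-level arrays were the lowest in their groups, and its differences were -0.01, -0.03 and -0.02. TM7SF2, NSDHL, EBP and DHCR7, which reduce, decarboxylate and isomerise the sterol rings, differed by -0.06 to 0.04 over the 3 compounds.

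None of the 5 regulator and transfer genes was called with any compound. No call in 5 genes is near the background of 4.6% (DFO), 5.84% (Deferasirox) and 0.734% (OICR623) of all genes called. INSIG1, which retains SCAP in the endoplasmic reticulum and is itself an SREBP target, had the widest positive difference after DFO. It read 8.33, 7.79, 7.56 and 7.81 in DMSO 1 to 4 and 8.59, 7.81, 7.90 and 8.19 in DFO 1 to 4. The Deferasirox arrays read 7.88, 7.56 and 8.11, and with OICR623 7.75 and 7.55. DFO exceeded DMSO within each level, by 0.26 at the high, 0.18 at the middle and 0.38 at the low level, but the ranges over all levels overlapped. The fitted difference was 0.25 (SE 0.08, 95% interval 0.07 to 0.44, adjusted p = 0.15) with DFO, 0.14 (SE 0.09, adjusted p = 0.53) with Deferasirox and 0.03 (SE 0.11, adjusted p = 0.96) with OICR623.

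**Figure D2:**
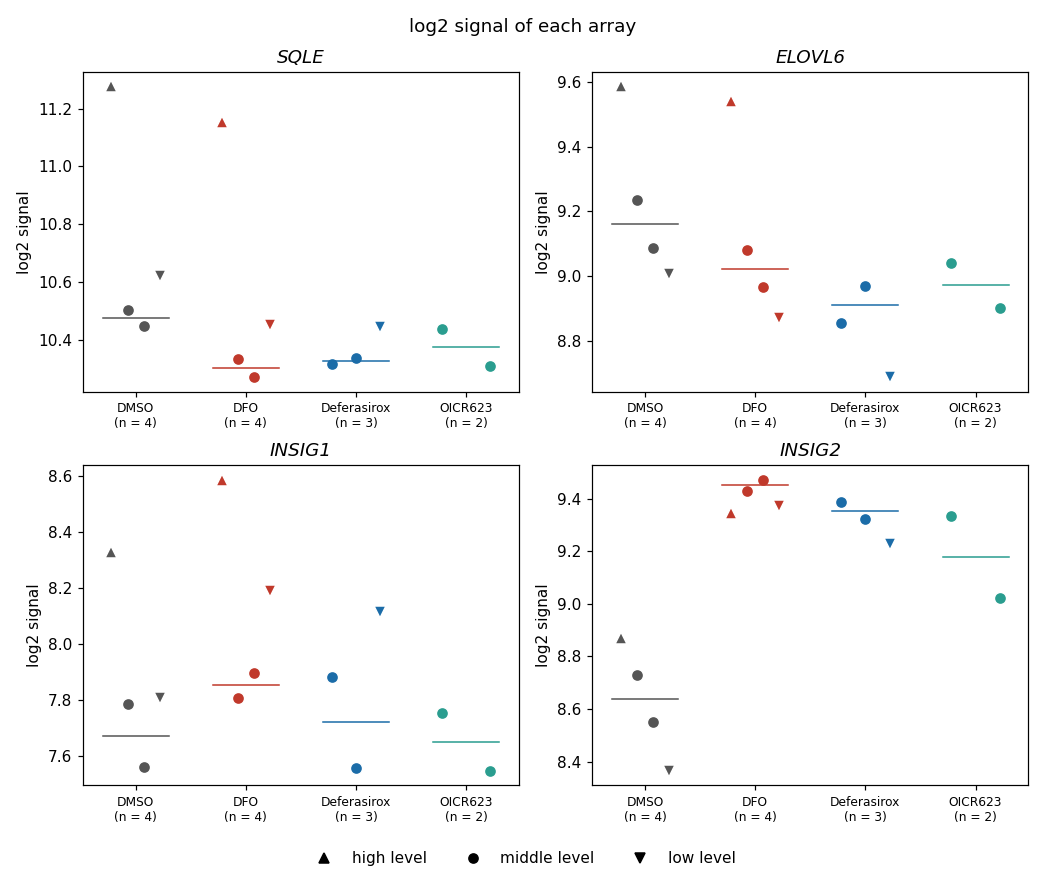
Log2 signal (vertical axis) of SQLE, ELOVL6, INSIG1 and INSIG2 on each array, by treatment group (horizontal axis), with the level of the array as the symbol and the mean of the middle-level arrays as a line. SQLE in DFO and ELOVL6 in Deferasirox sit slightly below DMSO at each level, whereas INSIG2 sits above DMSO in every treated array.

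SREBF1, which encodes the SREBP that favours fatty acid genes, read 9.15, 7.94, 7.94 and 8.07 in DMSO 1 to 4 and 9.22, 8.02, 8.03 and 8.10 in DFO 1 to 4. It read 8.13, 8.06 and 8.14 in Deferasirox 1 to 3 and 7.90 and 7.93 in OICR623 1 and 2. Its difference was 0.07 (SE 0.03, adjusted p = 0.39) with DFO, 0.13 (SE 0.04, adjusted p = 0.087) with Deferasirox and -0.04 (SE 0.04, adjusted p = 0.84) with OICR623. DMSO 1 and DFO 1 were far above the other arrays of their groups. SREBF2, whose product favours sterol genes, read 9.40, 8.65, 8.60 and 8.59 in DMSO 1 to 4 and 9.43, 8.76, 8.63 and 8.71 in DFO 1 to 4. Deferasirox arrays 1 to 3 read 8.68, 8.72 and 8.66, and with OICR623 8.75 and 8.68. Its differences were 0.07, 0.07 and 0.09, each with an SE of 0.04 or 0.05. Its ranges over all levels overlapped, and it was not called with any compound. DFO exceeded DMSO in each of 4 pairs, where 24.2% of all genes differed one way.

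SCAP, the escort of SREBP, read 10.28, 9.82, 9.83 and 9.66 in DMSO 1 to 4 and 10.22, 9.78, 9.79 and 9.64 in DFO 1 to 4. With Deferasirox it read 9.88, 9.78 and 9.62, and with OICR623 9.86 and 9.76. Its differences were -0.04, -0.01 and -0.02. The ranges overlapped over all levels, and DFO lay below DMSO in each of 4 pairs. STARD4, a carrier that moves sterol between membranes, had the widest errors of the members, at 0.20 (SE 0.13) with Deferasirox and -0.04 (SE 0.12) with DFO.

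In fatty acid synthesis, 1 of 7 genes was called with Deferasirox and none with DFO or OICR623. Of all genes, 5.84%, 4.6% and 0.734% were called with these compounds, and so few genes cannot be told apart from those shares. ELOVL6, which lengthens palmitate to stearate, read 9.59, 9.23, 9.09 and 9.01 in DMSO 1 to 4 and 8.85, 8.97 and 8.69 in Deferasirox 1 to 3. It read 9.54, 9.08, 8.97 and 8.87 in DFO 1 to 4 and 9.04 and 8.90 in OICR623 1 and 2. Every Deferasirox array lay below every DMSO array, by 0.25 on average at the middle level and 0.32 at the low level. ELOVL6 fell by 0.26 with Deferasirox on the log2 scale (SE 0.06, 1.20-fold, 95% interval -0.39 to -0.13, adjusted p = 0.025). The difference was -0.12 with DFO (SE 0.05, adjusted p = 0.32) and -0.19 with OICR623 (SE 0.07, adjusted p = 0.34). The Deferasirox call was kept without DMSO 1 and DFO 1 (-0.27, adjusted p = 0.035). It was lost without DMSO 2 (-0.23, adjusted p = 0.083), DMSO 4 (-0.25, adjusted p = 0.11), Deferasirox 1 (-0.24, adjusted p = 0.098) or Deferasirox 3 (-0.24, adjusted p = 0.14).

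SCD, which places the first double bond in stearate, read 12.21, 11.58, 11.54 and 11.47 in DMSO 1 to 4 and 11.72, 11.69 and 11.63 in Deferasirox 1 to 3. It read 12.24, 11.69, 11.58 and 11.46 in DFO 1 to 4 and 11.63 and 11.55 in OICR623 1 and 2. The Deferasirox arrays exceeded the DMSO arrays of the same level, by 0.14 at the middle and 0.17 at the low level, with a fitted difference of 0.15 (SE 0.04, adjusted p = 0.086). The differences were 0.05 (SE 0.04) with DFO and 0.02 (SE 0.05) with OICR623. FADS1, the delta-5 desaturase of polyunsaturated fatty acids, read 11.97, 10.94, 10.87 and 10.93 in DMSO 1 to 4 and 12.03, 11.00, 11.03 and 11.06 in DFO 1 to 4. The Deferasirox arrays read 10.96, 10.98 and 11.02, and with OICR623 10.94 and 10.93. DFO exceeded DMSO at each level by 0.06 to 0.13, and the fitted difference was 0.10 (SE 0.03, adjusted p = 0.15).

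FADS2, the delta-6 desaturase, read 10.61, 9.94, 9.82 and 9.78 in DMSO 1 to 4 and 10.65, 9.98, 9.90 and 9.81 in DFO 1 to 4. Deferasirox arrays 1 to 3 read 9.98, 9.92 and 9.86, and with OICR623 9.91 and 9.80. The ranges overlapped, DFO exceeded DMSO in each of 4 pairs, and the differences were 0.05, 0.07 and -0.04. FASN, the synthase that builds palmitate, read 10.60, 10.05, 10.00 and 9.70 in DMSO 1 to 4 and 10.59, 10.07, 10.08 and 9.87 in DFO 1 to 4. With Deferasirox it read 10.05, 10.04 and 9.85, and with OICR623 10.08 and 10.06. Its differences were 0.07, 0.06 and 0.06, each within 2 standard errors of 0. ACLY and ACACA, which supply cytosolic acetyl-CoA and malonyl-CoA, differed by -0.02 to 0.11.

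The 6 genes for iron enzymes (CYP51A1, MSMO1, SC5D, SCD, FADS1 and FADS2) were not called in any comparison, and at the shares of all genes called (4.6% with DFO, 5.84% with Deferasirox and 0.734% with OICR623) a count of 0 in 6 is near the background. FADS1 was called with DFO, and SCD with Deferasirox, under the filter on dim genes and under the mean-variance trend. Their median differences were 0.02 with DFO, 0.05 with Deferasirox and 0.00 with OICR623. With DFO and with OICR623, 3 of the 6 were above 0 and 3 below, and with Deferasirox 4 were above and 2 below. The measurements concern transcripts, and enzyme activity was not measured.

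**Figure D3:**
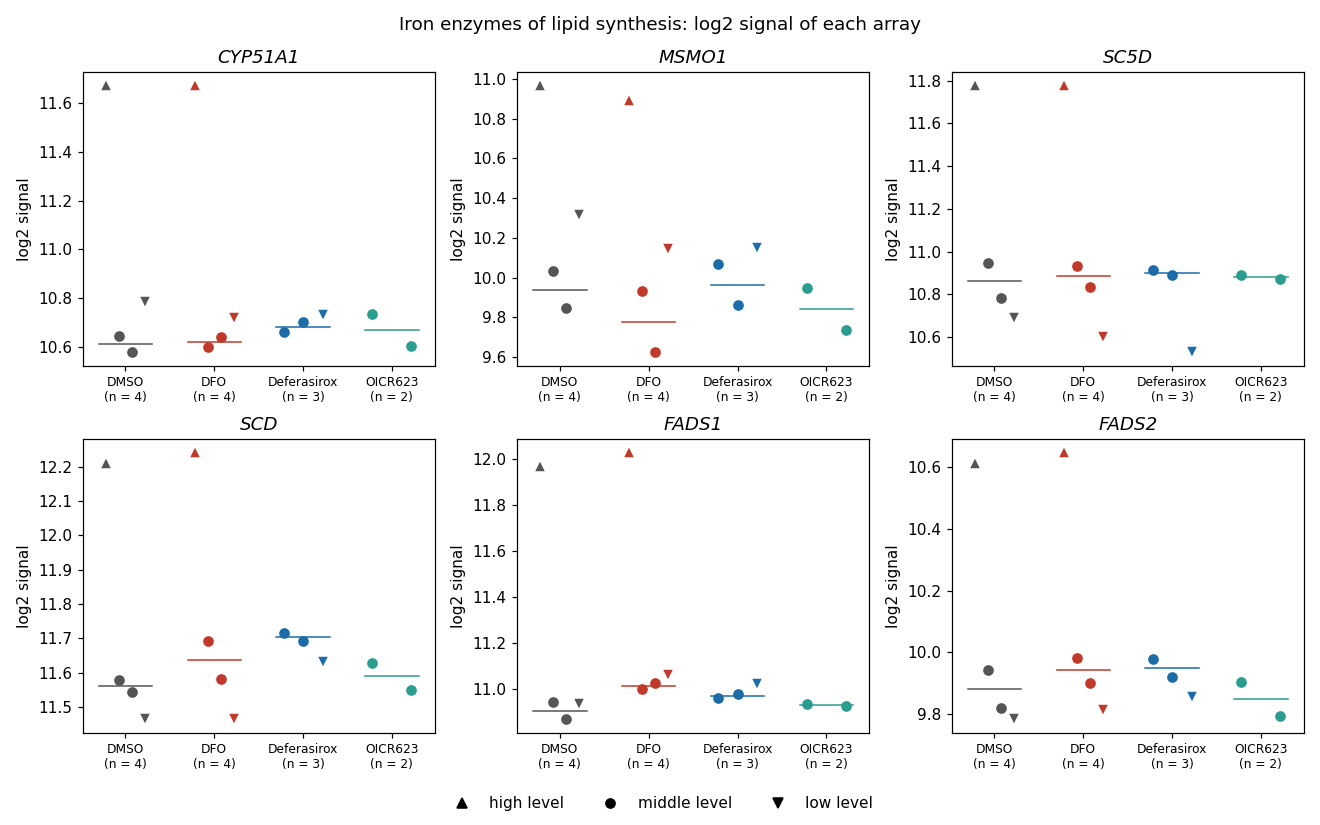
Log2 signal (vertical axis) of the 6 genes for iron enzymes on each array, by treatment group (horizontal axis), with the level of the array as the symbol and the mean of the middle-level arrays as a line. The treated and control lines lie close together in each panel, and the high-level arrays DMSO 1 and DFO 1 stand above all others.

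The compounds were given at different labelled doses, so the values are set side by side as given and not as matched doses. Between the compounds, 0 members were called in any of the 3 pairs, while 0.0435% of all genes were called for Deferasirox against DFO, 0.168% for OICR623 against DFO and 0.0869% for OICR623 against Deferasirox. With an unadjusted limma p under 0.05 there were 2, 1 and 2 members in these pairs. The members' differences spanned -0.15 to 0.24, -0.22 to 0.12 and -0.17 to 0.08, and all 28 intervals lay within 1.5-fold in each pair. These intervals allow for differences up to that size, and a p that missed the threshold does not show that the compounds acted alike. SREBF1 was lower with OICR623 than with Deferasirox by 0.17 (SE 0.05, adjusted p = 0.29), and SCD by 0.13 (SE 0.05, adjusted p = 0.53). The 3 comparisons with DMSO share the DMSO arrays, so a like direction in them is not independent evidence.

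Outside the members, INSIG2 rose with DFO and Deferasirox. INSIG2 is the sister of INSIG1 and holds SCAP and SREBP in the endoplasmic reticulum. It read 8.87, 8.73, 8.55 and 8.37 in DMSO 1 to 4 and 9.35, 9.43, 9.47 and 9.37 in DFO 1 to 4. The Deferasirox arrays read 9.39, 9.32 and 9.23, and with OICR623 9.33 and 9.02. Every treated array lay above every DMSO array. INSIG2 rose with DFO by 0.78 (SE 0.09, 1.71-fold, adjusted p = 3.5e-04) and with Deferasirox by 0.71 (SE 0.10, 1.64-fold, adjusted p = 0.0014). With OICR623 the difference was 0.53 (SE 0.11, 1.44-fold, 95% interval 0.28 to 0.78, adjusted p = 0.075), and without DMSO 1 and DFO 1 it was 0.58 (adjusted p = 0.027). Fitted without the level block the adjusted p was 0.040 with DFO and 0.18 with Deferasirox. Of the 17 measured genes for SREBP processing and other SREBP targets, INSIG2 alone was called, with DFO and with Deferasirox, and 0 of 17 were called with OICR623. That share of the list, 5.88%, is close to the 4.6% and 5.84% of all genes.

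Of 11 further genes of sterol and isoprenoid synthesis, 1 was called with DFO and 0 with Deferasirox or OICR623. That gene, DHDDS, which makes the dolichol precursor, fell by 0.20 with DFO (SE 0.05, adjusted p = 0.029). The DHDDS call was lost without DMSO 3 (-0.19, adjusted p = 0.093), DMSO 4 (-0.17, adjusted p = 0.14), DFO 2 (-0.17, adjusted p = 0.095) or DFO 4 (-0.20, adjusted p = 0.11). Of 18 further genes of fatty acid elongation and desaturation and of 21 genes of fatty acid oxidation, 0 were called with any compound. These counts of 0 or 1 stand beside 4.6%, 5.84% and 0.734% of all genes called with DFO, Deferasirox and OICR623, and so are near the background, as is the next. Of 12 genes of sterol efflux and the LXR response, RXRA, the shared partner of many nuclear receptors, was called with DFO (0.16, adjusted p = 0.042) and with Deferasirox (0.25, adjusted p = 0.0051). The DFO call of RXRA was lost without any single array other than DMSO 1 or DFO 1, with adjusted p of 0.052 to 0.18.

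Several genes from the list for lipid droplets and uptake rose, which was not set against the synthesis genes in a test. Of 14 genes of lipid droplets and uptake, 4 rose and 1 fell with DFO, 3 rose and 1 fell with Deferasirox, and 1 rose with OICR623, beside 4.6%, 5.84% and 0.734% of all genes. Without the level block ANGPTL4 alone was called, with DFO and with Deferasirox, and 0 of 14 with OICR623, while the adjusted p of the other genes named here was 0.91 to 1.00 with DFO and Deferasirox and that of ANGPTL4 with OICR623 was 1.00. ANGPTL4, a secreted inhibitor of lipoprotein lipase, read 6.65, 6.22, 6.33 and 5.99 in DMSO 1 to 4, 7.63, 7.59, 7.63 and 7.96 in DFO 1 to 4, 7.91, 7.97 and 8.21 with Deferasirox and 7.07 and 7.12 with OICR623. It rose by 1.40 with DFO (SE 0.12, adjusted p = 5.1e-05), 1.78 with Deferasirox (SE 0.13, adjusted p = 2.7e-05) and 0.88 with OICR623 (SE 0.16, adjusted p = 0.035), and no treated array overlapped DMSO. PLIN2, a coat protein of lipid droplets, rose by 0.36 and 0.54 with DFO and Deferasirox, and HILPDA, an inhibitor of lipid droplet lipolysis, by 0.42 and 0.39. VLDLR, a lipoprotein receptor, rose by 0.34 with DFO, and the hormone-sensitive lipase gene LIPE fell by 0.19 with DFO and 0.25 with Deferasirox. The LIPE call with DFO was lost without DMSO 1 or DFO 1 (-0.17, adjusted p = 0.068), DMSO 4 (-0.18, adjusted p = 0.072) or DFO 4 (-0.19, adjusted p = 0.057). The OICR623 call of ANGPTL4 was lost in 9 of the 13 fits that left out 1 array, all but those without DMSO 1, DFO 1, DMSO 4 or DFO 4, with adjusted p up to 0.17.

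Many members differed between array levels, by up to 0.48 at the low and 0.89 at the high level, whereas no treatment difference from DMSO exceeded 0.26 in size. For this, each array was centred on its median over all genes and the groups were kept as a factor, a comparison chosen after seeing the data. At the low level, 13 of 28 members were higher than at the middle level (46.4%, against 18.8% of all genes) and 2 were lower, SC5D and FASN (23.6% of all genes were lower). At the high level, 19 were higher (67.9%, against 27.3% of all genes) and 1, SCAP, was lower (35.9% of all genes). All 28 members lay above the median gene in mean signal, and of the 9202 genes above it 14.5% were higher at the low level and 36.8% at the high level.

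The low-level shift was widest in IDI1 (0.48, SE 0.08), MSMO1 (0.45, SE 0.09), HMGCS1 (0.44, SE 0.08) and INSIG1 (0.43, SE 0.09), followed by DHCR7 (0.32), LSS (0.31) and SQLE (0.27). Of these 7, all but INSIG1 are enzymes of the cholesterol route, but the route did not move as a whole: ACAT2, MVK, PMVK, FDPS, NSDHL and EBP were uncalled at the low level and SC5D was called lower. At the high level the widest shifts were those of IDI1 (0.89), STARD4 (0.83), HMGCS1 (0.59) and SREBF1 (0.57). In fatty acid synthesis, only FADS1 was called higher at the low level, while FASN was called lower. At the high level ACLY, ACACA and FADS1 of these 7 genes were called higher and 0 lower. The high level held the 2 arrays that share values, so its errors may be too small. The low level held DMSO 4, DFO 4 and Deferasirox 3 alone. Whether these were independent of one another is not known, so its errors may be too small as well. The levels were set from the medians of the same arrays. With the values as deposited, 8 members were called higher and 11 lower at the low level, since the whole array shifted by -0.15 at the median, and with quantile normalization 14 were higher and 0 lower. At the high level quantile normalization gave 17 higher and 4 lower (FDPS, SCAP, FASN and ELOVL6), and the values as deposited gave 28 higher.

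**Figure D4:**
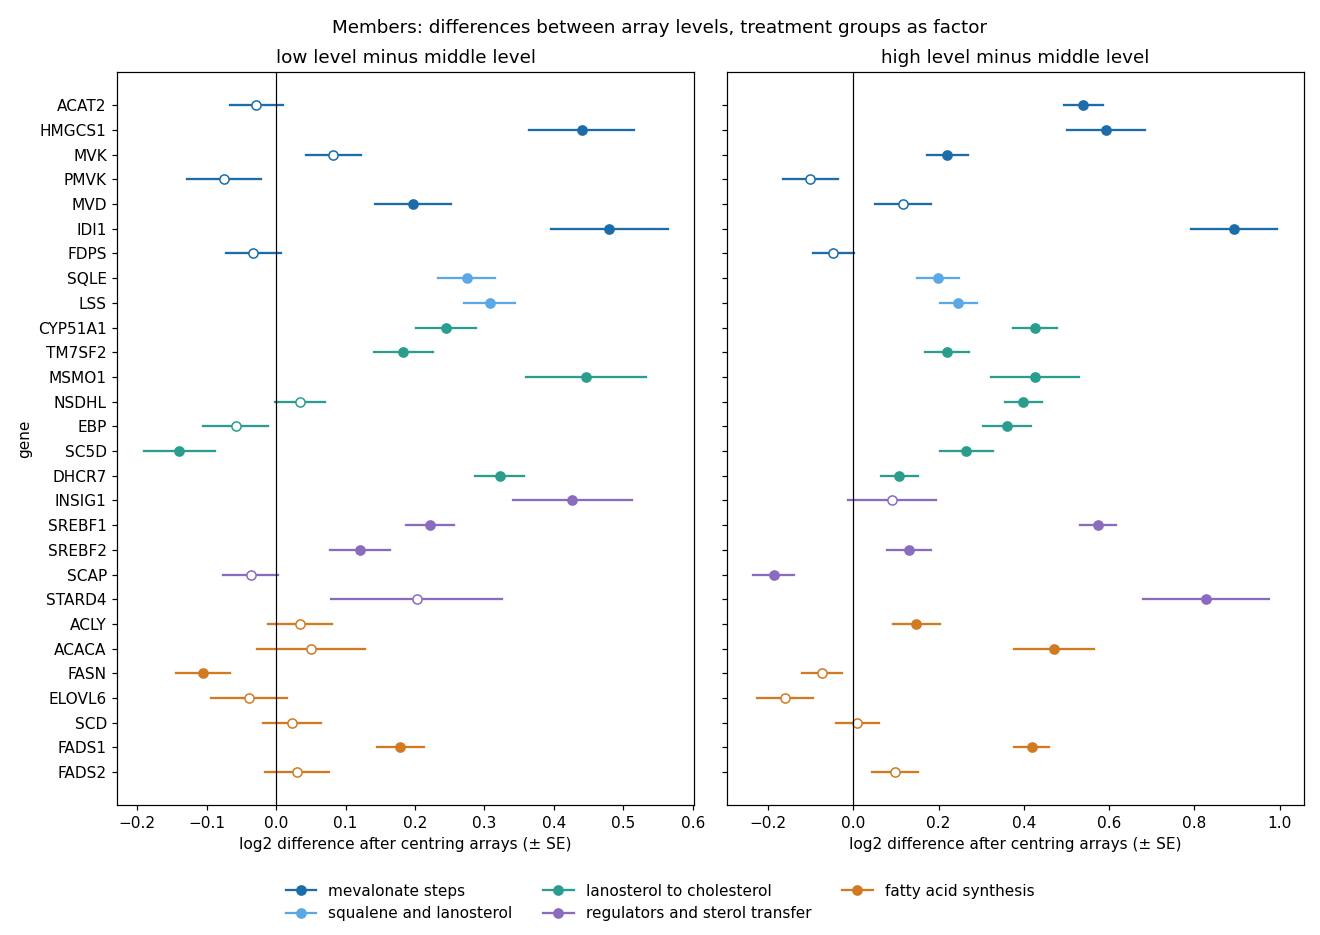
Log2 difference between array levels after each array was centred on its median (horizontal axis, bars are SE) for the 28 members (vertical axis), with the low level against the middle level on the left and the high level against the middle level on the right. Filled points were called at adjusted p under 0.05, and the sterol genes IDI1, HMGCS1 and MSMO1 lie furthest to the right in the low-level panel.

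Arrays of 1 treatment and level also differed in these genes. DMSO 2 exceeded DMSO 3 in 23 of 28 members, with a median of 0.07 against -0.01 over all genes. OICR623 1 exceeded OICR623 2 in 24 of 28, with a median of 0.08 against 0.01 over all genes. In the OICR623 pair the gap was 0.61 for STARD4 and 0.36 for ACACA, wider than any fitted treatment difference of these genes. For DFO 2 against DFO 3 and Deferasirox 1 against Deferasirox 2 the counts were 17 and 15 of 28. Their medians were 0.04 and 0.01, each against -0.01 over all genes. The share of all genes higher in the first array was not counted, so these counts stand without a background. HMGCS1, IDI1, MSMO1, SC5D, STARD4, SCD, ACLY, ACACA and FADS2 were the members higher in the first array of every such pair. Whether the first arrays belonged together across treatments was not tested, and the fit took no account of it. What set the levels apart was not tested, and the labels name no batch. In RNA from whole wells, fewer expressing cells and less RNA per cell cannot be told apart.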

How the data were processed

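The authors deposited log2 signals for 32321 transcript clusters on 13 arrays of SW480 cells. Per the submitters' processing notes GCRMA and limma were used, with no version, role or order. The genome build and annotation release behind the array design are not given in the sources used here. Of the clusters, 19158 carried 1 gene symbol in the platform annotation, 1388 several and 11775 none, and 19128 were matched by Entrez identifier to the GRCh38.p14 gene table, with 0 symbols updated. Clusters with several symbols named no gene, and for the 637 genes with more than 1 cluster the highest mean decided. No depth exists for arrays, so their number limits the precision.

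Arrays were sorted by their median, a new level beginning at a gap over 0.05. limma 3.58.1 (R 4.3.3) fitted 1 mean per group and the level over all 13 arrays, with eBayes and Benjamini-Hochberg adjustment over 18404 genes, and a gene was called at an adjusted p under 0.05. The same procedure was also run on simulated data with independent noise. Its check required recovery only of planted log2 differences of 1 or more, wider than any difference of a member from DMSO here. The members, lists and levels were chosen with earlier results of these data known. Array values were given for called members and for HMGCS1, SQLE, INSIG1, SREBF1, SREBF2, SCAP, FASN and the 6 iron enzyme genes, and from the further lists only called genes were named.

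DFO and DMSO arrays of the same number deviated together (r = 0.95, 0.66, 0.74 and 0.79 over genes) and lay at the same level, so the numbers were taken as pairs. With the level removed, the correlations were -1 (forced, with 1 array each at that level), 0.08, 0.13 and -0.53. Residuals of this fit sum to 0 within each level, which also pulls the other correlations down, most at the low level with its 3 arrays. The correlations after removal therefore cannot decide whether pairing went beyond the level. The pairing comes from the data, since the labels tie no numbers to a shared experiment. Deferasirox and DMSO arrays of the same number did not deviate together (r = -0.06, 0.33 and -0.32). Deferasirox 1 and DMSO 1 lay at different levels, as did Deferasirox 3 and DMSO 3. This check could therefore not show a pairing in another order. Alternatives were no level block, the replicate number as a block, the middle level alone, the 2 groups alone, quantile normalization, median centring, the mean of a gene's rows, a filter on dim genes, a mean-variance trend, leaving out each array, and, added after seeing the data, the replicate block on DFO and DMSO alone and the omission of DMSO 1 and DFO 1. Protein sequences were not used here.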

Additional observations from a re-analysis of the deposited data

Results flagged for a closer look

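In groups of 4 arrays, a single array stood apart from the other 3 in 13 cases, judged by the gap to its nearest neighbour as a share of the group's range. Chance alone marks about 1 group in 20. The rule was run on the deposited values with the level left in, so the high-level arrays DMSO 1 and DFO 1 were likely to stand apart. That rate is therefore no yardstick for them. DMSO 1 was the highest DMSO array by such a gap for SREBF1 (0.894), SREBF2 (0.921), SCD (0.847), FADS1 (0.932) and RXRA (0.916). DFO 1 was the highest DFO array for CYP51A1 (0.887), SREBF1 (0.926), SREBF2 (0.841), FADS1 (0.941), RXRA (0.883), VLDLR (0.844) and the median of the members (0.865). These are the high-level arrays that share 5535 values. DFO 4 was the highest DFO array for ANGPTL4 (0.877).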

How the results depend on the processing

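The count of members called fell from 1 to 0 for both DFO and Deferasirox without the level block, with the replicate block on all arrays, with the middle level alone, with the arrays of the 2 groups alone, and with quantile normalization or median centring in place of the block. For DFO it was also 0 with the replicate block on the paired DFO and DMSO arrays alone (SQLE -0.16, adjusted p = 0.057) and without the high-level pair. It was 2 with DFO (SQLE and FADS1) under the filter on dim genes and under the mean-variance trend. With Deferasirox it was 2 under quantile normalization with the block (SQLE and ELOVL6), 4 under the filter (SQLE, SREBF1, SCD and ELOVL6) and 3 under the trend (SQLE, SCD and ELOVL6). Leaving out single arrays gave 0 to 1 for DFO and 0 to 1 for Deferasirox. Counts for OICR623 and for the 3 pairs of compounds were 0 under every alternative run. The members' median moved by more than its residual SD of 0.0685 without the level block (Deferasirox -0.21, OICR623 -0.24), with the replicate block (-0.27 and -0.42) and, for OICR623, with quantile normalization (-0.10) or centring (-0.12) in place of the block. The replicate block on all arrays set Deferasirox 1 and OICR623 1 (middle level) beside DMSO 1 and DFO 1 (high level). It therefore mixed levels within a block. Called differences kept their direction except RXRA with Deferasirox, which was -0.058 (adjusted p = 0.85) with the replicate block on all arrays. Among 1603 values of named genes under 25 settings, 1457 kept their side of the threshold, 118 lost a call, 27 gained one and 1 reversed, and 82 changed sign while uncalled. The level comparison counted 8 members higher at the low level with the values as deposited. The causes were not tested. The signals are not on an absolute scale, and the median standard error of the members limits single-gene resolution.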

Other observations

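The row shared by HSD17B7 and HSD17B7P2 differed from DMSO by -0.25 (SE 0.11) with DFO, -0.22 (SE 0.12) with Deferasirox and -0.22 (SE 0.14) with OICR623, with an adjusted p of 0.41, 0.52 and 0.77 over all rows. A dimmer row of CYP51A1 differed by -0.20 (SE 0.14), -0.01 (SE 0.16) and -0.16 (SE 0.19), while the row used differed by -0.01, 0.03 and 0.04. Both rows of CYP51A1 were uncalled.

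CDX2, an intestinal transcription factor among the epithelial markers, fell by 0.49 with DFO (SE 0.08, adjusted p = 0.0063) and by 0.77 with Deferasirox (SE 0.09, adjusted p = 6.8e-04), and differed by -0.44 (SE 0.11, adjusted p = 0.13) with OICR623. The keratin KRT19 rose by 0.35 (SE 0.07, adjusted p = 0.014) with DFO and 0.33 (SE 0.08, adjusted p = 0.030) with Deferasirox. Their part in the results on lipid genes was not tested.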
